A study of Homo sapiens with 8 samples.

Results

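The genes described here are 9 genes of MHC class I and antigen presentation: the heavy chain genes HLA-B, HLA-C, HLA-E and HLA-F, the light chain gene B2M, the peptide transporter genes TAP1 and TAP2, the loading factor gene TAPBP and the regulator gene NLRC5. They were chosen by name, without a threshold, and all 9 were found once in each of 3 deposited tables, among 59370 genes in all and 14977 that passed a filter on low values. RNA was sequenced from BJ cells, an established line of human skin fibroblasts grown in DMEM with serum, in 8 libraries of 4 groups. The group OE-PURPL overexpressed the long noncoding RNA PURPL and had PCDNA as its control. In the group ASO-PURPL an antisense oligonucleotide (ASO) lowered PURPL, and ASO-NC was its control. Each group held 2 libraries, and all 4 groups share the cell line and its medium. The wider study is about long noncoding RNAs that act as human fibroblasts age.

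Nearly every nucleated cell displays MHC class I at its surface, where a heavy chain paired with beta-2-microglobulin holds a short peptide from inside the cell. Proteasomes cut the peptides, the transporter made of TAP1 and TAP2 carries them into the endoplasmic reticulum, and tapasin, the product of TAPBP, helps to load them onto the heavy chain. Interferons induce most genes of this pathway through transcription factors such as the IRF family, and NLRC5 is a co-activator at class I promoters. Killer T cells read the displayed peptides, and class I molecules, HLA-E and HLA-F among them, are also ligands of receptors on natural killer cells.

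Of the 9 genes, 7 lie in the MHC on chromosome 6 and 2 lie elsewhere, B2M on chromosome 15 and NLRC5 on chromosome 16. In GENCODE release 29, which is on the same assembly as the hg38 build of the files, all are protein-coding genes. HLA-F spans chr6:29722775-29738528 on the plus strand and HLA-E spans chr6:30489467-30494205 on the plus strand. HLA-C spans chr6:31268749-31272130 on the minus strand, and most of it lies within the annotated span of HLA-B, chr6:31269491-31357188, on the same strand. TAP2 (chr6:32821833-32838780) and TAP1 (chr6:32845209-32853978) lie on the minus strand with the immunoproteasome genes PSMB8 and PSMB9 between and beside them. TAPBP spans chr6:33299694-33314387 on the minus strand, B2M spans chr15:44711487-44718877 on the plus strand, and NLRC5 spans chr16:56989485-57083531 on the plus strand. Because the class I genes resemble each other and HLA-B and HLA-C overlap in this annotation, the division of reads among them by the authors' program is uncertain. PSMB9, on the plus strand, overlaps TAP1 and PSMB8 on the minus strand. Whether the counting used strand is not stated, and without it reads of such a pair cannot be told apart.

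The promoters are shown because most of these genes were high in the same libraries and low in the same libraries. RefSeq promoters of GRCh38.p14, which run from 250 bases before to 50 bases after a start site, were found for 7 of the 9 genes (8 promoters, since TAP1 has 2 start sites), and HLA-E and NLRC5 were not matched. An interferon-response pattern, GAA or GAAA followed by any 2 bases and GAAA, on either strand, was found in at least 1 promoter of all 7 genes. It was found in 10.6% of all 35116 promoters of the same length. The form with GAA alone was found in 3 of the 7 genes (7.66% of all promoters) and the form with GAAA alone in 5 of the 7 (3.57% of all), and both were chosen after the sequences were read. The stretches below stop before the start site, read 5′ to 3′ along the gene, and have the matches in capitals, the reverse complement where the match is on the other strand and overlapping or adjoining matches as 1 run.
HLA-B (chr6:31357290-31357369, minus strand): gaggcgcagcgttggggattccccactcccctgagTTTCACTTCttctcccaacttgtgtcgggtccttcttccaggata
HLA-C (chr6:31272199-31272278, minus strand): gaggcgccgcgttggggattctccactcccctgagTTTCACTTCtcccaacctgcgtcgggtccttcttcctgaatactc
HLA-F (chr6:29723243-29723322, plus strand): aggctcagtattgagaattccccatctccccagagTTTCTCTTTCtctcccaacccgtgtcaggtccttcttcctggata
B2M (chr15:44711338-44711417, plus strand): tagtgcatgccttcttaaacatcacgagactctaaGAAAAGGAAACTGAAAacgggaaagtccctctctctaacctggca
TAP1 (chr6:32853794-32853873, minus strand): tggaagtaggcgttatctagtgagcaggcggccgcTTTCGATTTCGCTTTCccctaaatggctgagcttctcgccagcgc
TAP2 (chr6:32838758-32838837, minus strand): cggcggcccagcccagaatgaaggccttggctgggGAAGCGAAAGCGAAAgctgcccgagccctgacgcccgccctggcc
TAPBP (chr6:33314079-33314133, minus strand): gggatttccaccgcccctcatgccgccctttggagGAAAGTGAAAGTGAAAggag
The match began 155, 151 and 156 bases before the start site in HLA-B, HLA-C and HLA-F, and 20 bases before it in TAPBP. TAPBP, whose level differed least between the arms, holds 2 overlapping matches. An NF-kB pattern (GGG, any 5 bases and CC, on either strand) was found in 6 of the 7 genes and in 58.7% of all promoters, and a CCAAT box (CCAAT on either strand) in 5 of the 7 and in 34.6% of all. These matches describe letters in a window and are not binding sites.

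Levels are given in FPKM, a read measure divided by gene length and library size, which allows genes to be compared per length. Sequencing depth was unknown, and 13442 to 14598 genes reached 1 FPKM in a library. PURPL itself stood at 153 and 238 FPKM in OE-PURPL against 5.42 and 5.73 FPKM in PCDNA, and at 6.31 and 4.24 FPKM in ASO-PURPL against 16.2 and 9.74 FPKM in ASO-NC. The fibroblast label was met, since all 10 fibroblast markers such as COL1A1, COL1A2 and VIM were at or above 1 FPKM in every library, with sums of 3673 to 5698 FPKM. Of 12 immune cell markers, at most 2 reached 1 FPKM in any library, CD68 and CD14. PTPRC, CD3E and MS4A1, which define leukocytes, T cells and B cells, stayed at or below 0.303 FPKM throughout. Keratinocyte markers summed to 9.27 to 37 FPKM and endothelial markers to 0.795 to 2.34 FPKM. These are bulk libraries, in which fewer cells of a type and less RNA per cell cannot be told apart.

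**Figure D1:**
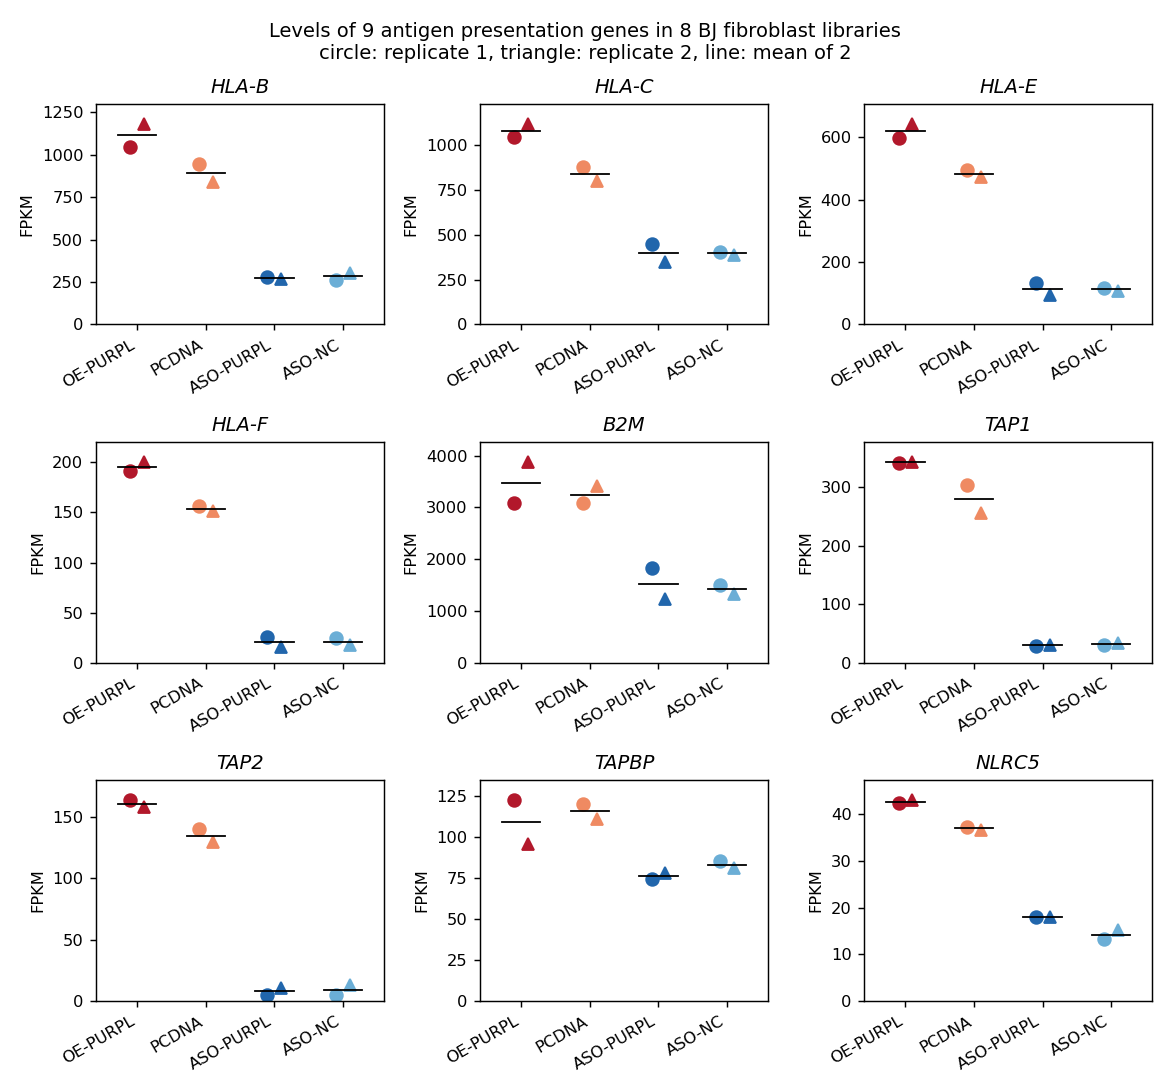
FPKM (vertical axis, from 0) of the 9 genes in the OE-PURPL, PCDNA, ASO-PURPL and ASO-NC libraries; a circle is replicate 1, a triangle replicate 2 and a line their mean. Both overexpression-arm groups lie above both knockdown-arm groups for each gene, with TAP1 at 256 FPKM or more in OE-PURPL and PCDNA and at 33.6 FPKM or less in ASO-PURPL and ASO-NC.

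The overexpression arm (OE-PURPL and PCDNA) carried far more antigen presentation RNA than the knockdown arm (ASO-PURPL and ASO-NC), in treated and control libraries alike. The 9 genes made up 1.17% and 1.31% of the summed FPKM in OE-PURPL and 1.17% and 1.13% in PCDNA, but 0.485% and 0.449% in ASO-PURPL and 0.438% and 0.464% in ASO-NC. Inside the table that holds replicate 2 of both arms, 8 of the 9 genes had a log2 ratio of at least 1 for PCDNA over ASO-NC, against 7.74% of all genes tested. Log2 ratios here are of FPKM + 1, which understates differences of low genes, and folds are plain ratios of FPKM. The median ratio was 1.47 for the 9 genes and 0.05 for all genes tested. The PCDNA and ASO-NC libraries of replicate 1 stand in separate tables, and set across them the same 8 genes reached 1, against 7.99% of all genes. All genes that did so in both replicates made up 4.71%. There is 1 library of each group in the shared table, so no test was run. The kind of control, and anything else that differed between the arms, cannot be told apart in this difference. Summed immune markers also differed, at 316 and 287 in PCDNA against 80.9 and 67.0 in ASO-NC (FPKM), nearly all of it CD68, a lysosomal protein gene, at 315 and 284 FPKM against 77.7 and 65.1 FPKM. Summed fibroblast markers were 5428 and 5347 in PCDNA against 3795 and 5698 in ASO-NC (FPKM), and summed keratinocyte markers 9.27 and 9.46 FPKM against 37.0 and 11.4 FPKM. Their part in the result was not tested.

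Among the heavy chains the non-classical genes differed most. HLA-F had 157 and 151 in PCDNA against 24.3 and 17.5 in ASO-NC (FPKM), an 8.66-fold difference inside the shared table. HLA-E, whose product presents leader peptides of other class I chains, had 494 and 471 in PCDNA against 117 and 107 in ASO-NC (FPKM), a 4.40-fold difference in that table. The PCDNA values of both genes lay well above the ASO-NC values. HLA-B, a classical heavy chain gene, had 947 and 842 in PCDNA against 264 and 302 in ASO-NC (FPKM, 2.78-fold). HLA-C, the other classical gene measured here, had 875 and 801 in PCDNA against 404 and 386 in ASO-NC (FPKM, 2.07-fold). The classical genes therefore differed less than HLA-E and HLA-F, and no group of 2 overlapped another across the arms.

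The makeup of heavy chain RNA differed with the arm. HLA-F made up 6.33% and 6.68% of the FPKM summed over the 4 heavy chain genes in PCDNA against 3.00% and 2.15% in ASO-NC, and HLA-E made up 20.0% and 20.8% against 14.5% and 13.2%. HLA-C stood at 0.925 and 0.951 times the level of HLA-B in PCDNA and at 1.53 and 1.28 times in ASO-NC. HLA-B was thus the highest heavy chain gene in PCDNA, and HLA-C was the highest in ASO-NC. In OE-PURPL and PCDNA the libraries of HLA-B and HLA-C overlapped, so their order there is not larger than the spread. B2M, the light chain gene, was the highest of the 9 genes in all 8 libraries. It had 3074 and 3410 in PCDNA against 1501 and 1332 in ASO-NC (FPKM, 2.56-fold in the shared table). B2M stood at 1.24 and 1.51 times the heavy chain sum in PCDNA and at 1.85 and 1.64 times in ASO-NC, so the heavy chain sum differed between arms by more than its partner did.

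TAP2 had the largest fold of the 9 genes in both replicates, followed by HLA-F and TAP1 in the shared table and by TAP1 (9.86-fold) and HLA-F (6.43-fold) across the tables of replicate 1. TAP1 had 305 and 256 in PCDNA against 30.9 and 33.6 in ASO-NC (FPKM), which was 7.63-fold in the shared table. TAP2 had 140 and 130 in PCDNA against 5.25 and 13.2 in ASO-NC (FPKM), which was 9.83-fold in the shared table and 26.7-fold across the tables of replicate 1. The ASO-NC libraries of TAP2 differed 2.51-fold from each other, the widest gap between libraries of a group for any of the 9 genes, and those of ASO-PURPL differed 2.11-fold in the same direction (5.09 and 10.7 FPKM). TAP1 was 2.17 and 1.98 times TAP2 in PCDNA and 5.88 and 2.54 times TAP2 in ASO-NC. TAPBP, by contrast, had 120 and 111 in PCDNA against 85.4 and 80.9 in ASO-NC (FPKM), a 1.38-fold difference and the only 1 of the 9 under a log2 ratio of 1. TAP1 stood at 2.54 and 2.30 times TAPBP in PCDNA and at 0.362 and 0.415 times in ASO-NC, so the order of transporter and loading factor RNA was the opposite in the arms. NLRC5 was the lowest of the 9 genes in both PCDNA libraries. It had 37.4 and 36.7 FPKM there against 13.2 and 15.2 FPKM in ASO-NC (2.42-fold), where its libraries overlapped those of TAP2.

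The treated libraries of the shared table differed in the same direction. OE-PURPL over ASO-PURPL reached 14.7-fold for TAP2, 12.4-fold for HLA-F, 11.5-fold for TAP1 and 6.90-fold for HLA-E. It was 4.46-fold for HLA-B, 3.22-fold for HLA-C, 3.17-fold for B2M, 2.40-fold for NLRC5 and 1.22-fold for TAPBP. Again 8 of 9 genes had a log2 ratio of at least 1, against 9.78% of all genes tested. Both PCDNA libraries lay above both ASO-NC libraries for all 9 genes, as they did for 32.4% of all genes tested, and both OE-PURPL libraries lay above both ASO-PURPL libraries for all 9, against 32.8%, with levels of replicate 1 set across tables. By group means the order in OE-PURPL and PCDNA was B2M, HLA-B, HLA-C, HLA-E, TAP1, HLA-F, TAP2, TAPBP and NLRC5, in which HLA-B and HLA-C overlapped. In ASO-PURPL and ASO-NC it was B2M, HLA-C, HLA-B, HLA-E, TAPBP, TAP1, HLA-F, NLRC5 and TAP2, in which HLA-F and NLRC5 overlapped in ASO-PURPL and NLRC5 and TAP2 in ASO-NC.

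**Figure D2:**
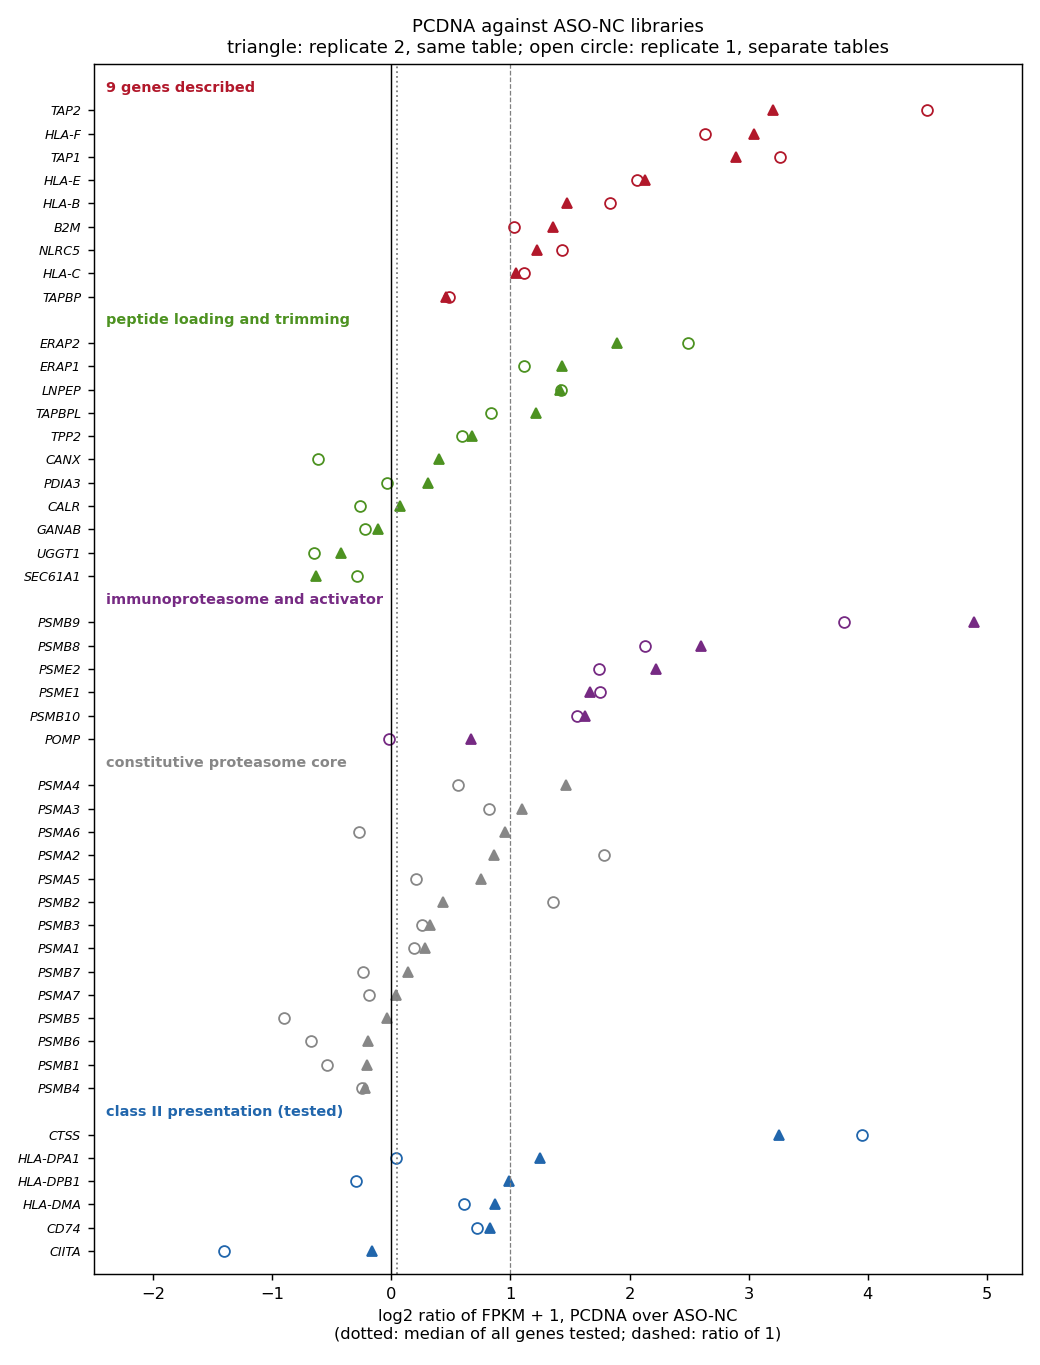
Log2 ratios of FPKM + 1 for PCDNA over ASO-NC (horizontal axis), for the 9 genes and other genes of the pathway (rows); triangles are replicate 2 inside a shared table, open circles replicate 1 across separate tables. TAP2, HLA-F and TAP1 lie at 3.20, 3.04 and 2.90 in the shared table and TAPBP at 0.45, while the constitutive proteasome core has a median of 0.30.

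Other genes of the pathway split along the same lines. Of 6 genes of the immunoproteasome and its activator, 5 had a log2 ratio of at least 1 in the shared table, and the same 5 did so across the tables of replicate 1 (median 1.95 and 1.74). PSMB9, a catalytic subunit, had 76.5 and 70.8 in PCDNA against 4.54 and 1.41 in ASO-NC (FPKM). PSMB8, another catalytic subunit, had 111 and 112 FPKM against 24.6 and 17.6 FPKM. PSME2, a subunit of the PA28 activator, had 219 and 217 in PCDNA against 65.0 and 45.6 in ASO-NC (FPKM). POMP, an assembly factor that constitutive proteasomes use as well, was the gene of this list under 1, with log2 ratios of 0.67 and, across tables, -0.02. Of 14 constitutive core genes, 2 reached 1 in the shared table (PSMA4 and PSMA3) and 0 did so in both replicates.

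Immunoproteasome subunits replace constitutive ones in the assembled particle, and their RNA ratios differed sharply. PSMB9 stood at 1.02 and 0.895 times PSMB6, the subunit it replaces, in PCDNA and at 0.0375 and 0.0155 times in ASO-NC. PSMB8 stood at 1.12 and 1.05 times PSMB5 in PCDNA and at 0.132 and 0.161 times in ASO-NC. PSMB10 stood at 0.421 and 0.361 times PSMB7 in PCDNA and at 0.117 and 0.123 times in ASO-NC. In PCDNA, PSMB9 and PSMB8 were thus near the level of their constitutive counterparts, and in ASO-NC far below it.

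Peptide loading and trimming showed a smaller difference. Of 11 genes, 4 reached a log2 ratio of 1 in the shared table, with a median of 0.40, and 3 of them did so in both replicates, with a median of -0.04 across the tables of replicate 1. In the shared table the trimming aminopeptidases ERAP2 and ERAP1 had 1.89 and 1.44, LNPEP, another aminopeptidase, had 1.42, and TAPBPL, a relative of tapasin, had 1.21 (0.84 across the tables of replicate 1). The sign of the general chaperones CALR and CANX and of the disulfide isomerase PDIA3 differed between the replicates. They had 0.07, 0.40 and 0.31 in the shared table and -0.27, -0.62 and -0.04 across the tables of replicate 1. CALR stood at 611 and 645 FPKM in PCDNA and at 736 and 614 FPKM in ASO-NC.

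Of 12 genes of class II presentation, which professional antigen-presenting cells use, 3 to 6 reached 1 FPKM in any one library. The 6 that passed the filter had a median log2 ratio of 0.93 in the shared table. Across the tables of replicate 1 this median was 0.33. Of the 6, 2 reached a log2 ratio of 1 in the shared table, CTSS and HLA-DPA1. CTSS alone did so in both replicates, since HLA-DPA1 had 6.52 and 6.54 FPKM in PCDNA, and 6.31 and 2.17 FPKM in ASO-NC, with log2 ratios of 1.25 in the shared table and 0.04 across the tables of replicate 1. CIITA, the class II relative of NLRC5, had 0.169 and 0.164 in PCDNA against 2.11 and 0.301 in ASO-NC (FPKM), and HLA-DRA stayed at or below 0.172 FPKM in all 8 libraries. HLA-DRB1, HLA-DQA1 and HLA-DQB1 were listed at 0.01 or 0 in every library. CTSS, a lysosomal protease, had 163 and 142 in PCDNA against 9.59 and 14.0 in ASO-NC (FPKM).

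Several regulators of class I transcription and interferon genes also differed between the arms. IRF1, an interferon-induced transcription factor, had 44.8 and 47.3 FPKM in PCDNA, and 15.3 and 14.2 FPKM in ASO-NC. IFNB1, the gene of interferon beta, had 7.27 and 5.76 in PCDNA against 0.559 and 0.736 in ASO-NC (FPKM), and IFNG was listed at 0.01 or 0 in all 8 libraries. Among other regulators RFX5 had a log2 ratio of 1.83 and NFKB1 of 0.13 in the shared table, and 0.90 and 0.11 across the tables of replicate 1. Of 14 regulators 6 reached 1 in the shared table, with a median of 0.74, and 4 did so in both replicates. Of 8 interferon ligand and receptor genes that passed the filter, out of 12, IFNB1 and IFNLR1 reached 1 in the shared table, and IFNB1 alone in both replicates. Of 10 class I-related genes and ligands of natural killer receptors, RAET1G, MR1 and PROCR reached 1 in both replicates, and the median in the shared table was 0.79. Their part in the class I difference was not tested.

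The neighbours of these genes in the MHC did not share the difference as a whole. Of 93 protein-coding genes tested from HLA-F to TAPBP, 86 were not among the 9, and 7 of these (8.14%) had a log2 ratio of at least 1 in the shared table, against 8.0% of all 12130 protein-coding genes tested. The median over the 86 genes was 0.01. In 4 of them the ratio was at least 1 also across the tables of replicate 1, namely TRIM26 (1.87 and 1.44), the complement gene CFB (3.07 and 3.50), PSMB8 and PSMB9.

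**Figure D3:**
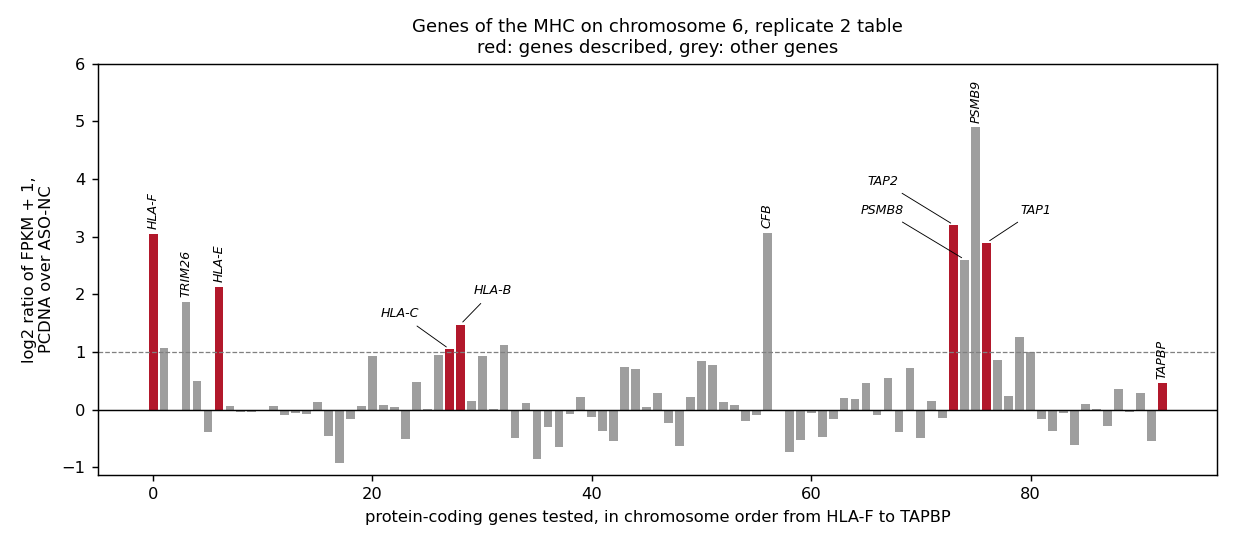
Log2 ratio of FPKM + 1 for PCDNA over ASO-NC in the replicate 2 table (vertical axis) for 93 protein-coding genes in chromosome order from HLA-F to TAPBP (horizontal axis); red bars are genes described here and grey bars the others. High bars stand singly or in the group of TAP2, PSMB8, PSMB9 and TAP1, and the median of the grey bars is 0.01.

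After overexpression of PURPL 8 of the 9 genes were slightly higher in both pairs, and none passed the test. One of the 8, B2M, was practically equal in the pair of replicate 1 (log2 ratio 0.002). Of the 9 genes 0 passed (limma, adjusted p under 0.05 over all genes), against 0.0267% of all genes tested in either direction. At an unadjusted p under 0.05, 5 of the 9 were higher, against 8.25% of all genes, and 0 were lower, against 5.51%. In both pairs 8 of 9 were higher, against 32.6% of all genes, and 0 were lower, against 31.1%. Both OE-PURPL libraries lay above both PCDNA libraries for 7 genes, all but B2M and TAPBP, against 23.5% of all genes. The median log2 change was 0.29 for the 9 genes (0.18 and 0.40 in the pairs) and 0.00 for all genes tested. The labels do not say that replicates came from separate cultures, so these p-values measure the spread between libraries, which may be technical. With quantile normalization and without the pairing by table the change was -0.24 for TAPBP and smaller than above for the other 8 genes, at most 0.20 (HLA-C).

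The heavy chain genes had similar ratios. HLA-C had 1042 and 1119 FPKM in OE-PURPL against 875 and 801 FPKM in PCDNA (log2 change 0.37, SE 0.13, adjusted p = 0.337, limma). HLA-E had 596 and 643 FPKM against 494 and 471 FPKM (0.36, SE 0.12, adjusted p = 0.331, limma). HLA-F had 191 and 200 FPKM against 157 and 151 FPKM (0.34, SE 0.09, adjusted p = 0.324, limma). In none of these did the groups overlap, yet the size of each change was under 0.5 on the log2 scale in either pair. HLA-B had 1046 and 1183 FPKM in OE-PURPL against 947 and 842 FPKM in PCDNA, and its pairs differed most, with log2 ratios of 0.14 and 0.49 (adjusted p = 0.379, limma).

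B2M had 3078 and 3876 FPKM in OE-PURPL against 3074 and 3410 FPKM in PCDNA, with ratios of 0.00 and 0.18, so the groups overlapped and the light chain stayed within the spread (adjusted p = 0.814, limma). B2M stood at 1.07 and 1.23 times the heavy chain sum in OE-PURPL, against 1.24 and 1.51 times in PCDNA. TAP1 had 342 and 343 FPKM in OE-PURPL against 305 and 256 FPKM in PCDNA (0.29, SE 0.10, adjusted p = 0.331, limma). TAP2 had 164 and 158 FPKM against 140 and 130 FPKM (0.25, SE 0.10, adjusted p = 0.362, limma). TAP1 was nearly equal in both OE-PURPL libraries, so the gap between its pairs lies in PCDNA. NLRC5 had 42.4 and 43.0 FPKM in OE-PURPL against 37.4 and 36.7 FPKM in PCDNA (0.20, SE 0.10, adjusted p = 0.418, limma). TAPBP differed in sign between the pairs, with 123 and 95.6 FPKM in OE-PURPL against 120 and 111 FPKM in PCDNA (ratios of 0.03 and -0.22, adjusted p = 0.704, limma).

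The pair of replicate 2 gave the larger ratio in 8 of the 9 genes. For replicate 1 the log2 fold changes in the authors' deposited table were 0.285 for HLA-F, 0.252 for HLA-C, 0.144 for HLA-B and 0.002 for B2M.

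**Figure D4:**
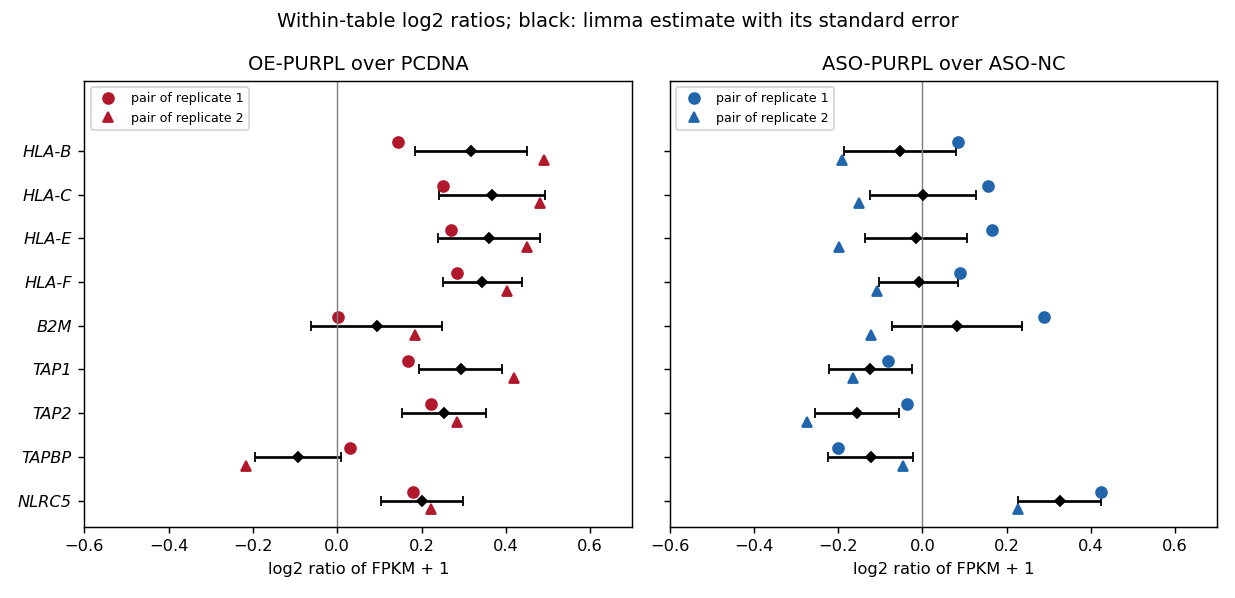
Log2 ratios of FPKM + 1 (horizontal axis) of the 9 genes (rows) in the pairs of replicate 1 (circles) and replicate 2 (triangles), for OE-PURPL over PCDNA on the left and ASO-PURPL over ASO-NC on the right; black marks are limma estimates with their standard errors. After overexpression all but B2M and TAPBP lie clear of 0 in both pairs, and after knockdown NLRC5 alone lies above 0 in both.

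The other lists of the pathway had 0 genes past the test after overexpression (limma). Among all genes tested 32.6% were higher and 31.1% lower in both pairs. At an unadjusted p under 0.05 (limma) 8.25% were higher and 5.51% lower. All 6 immunoproteasome genes were higher in both pairs (median 0.29, 3 at an unadjusted p under 0.05), with PSMB9 at 102 and 97.1 FPKM in OE-PURPL against 76.5 and 70.8 FPKM in PCDNA. Of 14 constitutive core genes, 7 were higher in both pairs and 0 lower (median 0.19, 4 at an unadjusted p under 0.05). Peptide loading and trimming genes had a median within 0.01 of 0, with 2 of 11 higher and 3 lower in both pairs and 1 lower at an unadjusted p under 0.05. Of 10 tested class I-related genes and ligands of natural killer receptors, 7 were higher in both pairs and 0 lower (median 0.24, 4 at an unadjusted p under 0.05). Among them FCGRT, which encodes the neonatal Fc receptor and pairs with beta-2-microglobulin, had 89.1 and 92.3 FPKM in OE-PURPL against 70.2 and 67.8 FPKM in PCDNA. The regulators had a median of -0.01, and 0 of 14 were at an unadjusted p under 0.05. IFNB1 had 8.74 and 13.3 FPKM in OE-PURPL against 7.27 and 5.76 FPKM in PCDNA (adjusted p = 0.360, limma). IFNL1, the gene of an interferon of the lambda type, had 3.57 and 3.69 FPKM against 1.61 and 0.707 FPKM (log2 change 1.13, SE 0.25, adjusted p = 0.324, limma). Of 8 tested interferon ligand and receptor genes 2 were higher and 5 lower in both pairs (median -0.09), and 2 were higher and 2 lower at an unadjusted p under 0.05. The lower ones were IFNE, the gene of interferon epsilon, with 1.41 and 1.14 FPKM in OE-PURPL against 2.13 and 3.34 FPKM in PCDNA (log2 change -0.70, SE 0.21, adjusted p = 0.326, limma), and IFNAR1, a subunit of the type I interferon receptor, with 13.8 and 14.3 FPKM against 16.6 and 20.5 FPKM (-0.37, SE 0.11, adjusted p = 0.325, limma). Of 6 tested class II genes 3 were higher and 1 lower (median 0.11). CD68 had 354 and 348 FPKM in OE-PURPL against 315 and 284 FPKM in PCDNA, and summed keratinocyte markers were 13.8 and 13.0 FPKM against 9.27 and 9.46 FPKM. Their part in the result was not tested.

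After knockdown of PURPL the 9 genes showed no shared direction. By limma 0 of the 9 passed, against 0% of all genes tested, and at an unadjusted p under 0.05 1 of the 9, NLRC5, was higher, against 3.54% of all genes, and 0 were lower, against 4.64%. In either direction 8.18% of all genes had such a p. In both pairs 1 gene was higher (NLRC5, against 19.3% of all genes) and 3 were lower (TAP1, TAP2 and TAPBP, against 33.4%). The median log2 change was -0.02 for the 9 genes and -0.04 for all genes tested. The other 5 genes, all the heavy chains and B2M, were above 0 in the pair of replicate 1 and below 0 in the pair of replicate 2.

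NLRC5 had 18.0 and 18.0 FPKM in ASO-PURPL against 13.2 and 15.2 FPKM in ASO-NC, so the groups did not overlap (log2 change 0.33, SE 0.10, adjusted p = 0.587, limma). Both ASO-PURPL libraries lay above both ASO-NC libraries for 8.37% of all genes tested. NLRC5 was thus higher in the treated libraries of both comparisons, though PURPL was raised in one and lowered in the other. TAP1 had 29.2 and 29.8 FPKM in ASO-PURPL against 30.9 and 33.6 FPKM in ASO-NC (-0.12, SE 0.10, adjusted p = 0.745, limma). TAP2 had 5.09 and 10.7 FPKM against 5.25 and 13.2 FPKM (-0.16, SE 0.10, adjusted p = 0.675, limma). TAPBP had 74.2 and 78.4 FPKM against 85.4 and 80.9 FPKM (-0.12, SE 0.10, adjusted p = 0.756, limma). TAP1 and TAPBP did not overlap between the groups, with both ASO-PURPL libraries below both ASO-NC libraries as in 13.1% of all genes, whereas TAP2 did, and its libraries differed more by replicate than by treatment.

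The heavy chains and B2M split by replicate. HLA-B had 280 and 265 FPKM in ASO-PURPL against 264 and 302 FPKM in ASO-NC, and HLA-C had 450 and 348 FPKM against 404 and 386 FPKM. HLA-E had 132 and 93.1 FPKM in ASO-PURPL against 117 and 107 FPKM in ASO-NC, and HLA-F had 26.0 and 16.1 FPKM against 24.3 and 17.5 FPKM. B2M had 1833 and 1223 FPKM against 1501 and 1332 FPKM, with ratios of 0.29 and -0.12. All 5 overlapped between the groups, and their adjusted p-values ran from 0.910 to 1.00 (limma).

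The other lists gave 0 genes past the test after knockdown as well (limma). Among all genes tested 19.3% were higher and 33.4% lower in both pairs. At an unadjusted p under 0.05 (limma) 3.54% were higher and 4.64% lower. Of 6 immunoproteasome genes 2 were higher and 0 lower in both pairs (median 0.11, 0 at an unadjusted p under 0.05). Of 10 tested class I-related genes 4 were lower and 1 higher in both pairs (median -0.16), and 2 were lower at an unadjusted p under 0.05. Of 8 tested interferon genes 2 were higher and 1 lower (median 0.04), and of 6 class II genes 2 were higher and 2 lower (median -0.09). RAET1G, a stress ligand of the natural killer receptor NKG2D, had 1.99 and 1.26 FPKM in ASO-PURPL against 3.35 and 2.80 FPKM in ASO-NC (log2 change -0.64, SE 0.14, adjusted p = 0.582, limma). MICB, a further NKG2D ligand, had 7.63 and 8.12 FPKM against 8.65 and 11.2 FPKM (-0.29, SE 0.11, adjusted p = 0.603, limma). Of 14 regulators 8 were lower and 1 higher in both pairs (median -0.10, 0 at an unadjusted p under 0.05).

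The difference between the overexpression and the knockdown change was tested directly. Of the 9 genes 0 passed (limma), against 0.02% of all genes tested, and 3 were higher for overexpression at an unadjusted p under 0.05, against 8.52% of all genes, and 0 were lower, against 4.47%. The higher ones were TAP1 (difference 0.42, SE 0.14, adjusted p = 0.368, limma), TAP2 (0.41, SE 0.14, adjusted p = 0.372, limma) and HLA-F (0.35, SE 0.13, adjusted p = 0.379, limma). TAP1 and TAP2 were higher in both overexpression pairs and lower in both knockdown pairs. The former held for 32.6% of all genes tested and the latter for 33.4%, and the share with both was not counted. Because the arms start from different levels, the difference between the changes cannot be told apart from the arm. B2M and TAPBP had differences of 0.01 and 0.03, with SEs of 0.22 and 0.14.

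Over the 8 libraries the genes most like the mean of the 9 were ETV7, IFITM1, APOBEC3G, FMOD and GSDMD, with Pearson correlations of 0.998 to 0.999 of log2(FPKM + 1). ETV7 had 32.6 and 34.6 FPKM in OE-PURPL, 27.7 and 26.6 FPKM in PCDNA, 0.655 and 0.502 FPKM in ASO-PURPL, and 0.673 and 0.787 FPKM in ASO-NC. With NLRC5 alone the most alike were MSL1, PTX3, ICAM2, OIP5 and BIRC3, with correlations of 0.993 to 0.999. PTX3 had 38.5 and 45.4 FPKM in OE-PURPL, 34.6 and 33.8 FPKM in PCDNA, 8.98 and 9.65 FPKM in ASO-PURPL, and 4.93 and 7.13 FPKM in ASO-NC. The libraries form 2 arms with different levels, and 947 genes had a correlation over 0.95 with the mean of the 9, and 582 genes had one with NLRC5. Among the 9, TAPBP was the least like the rest, with correlations of 0.794 to 0.905, against 0.902 to 0.998 among the other 8.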

How the data were processed

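RNA of 8 BJ libraries was sequenced after preparation with an mRNA kit, per the labels' protocols. Per the submitters' processing notes the tools were STAR and Cufflinks (versions not stated) and the build was hg38. No source names the annotation. The authors deposited FPKM in 3 tables. Those of replicate 1 hold OE-PURPL with PCDNA and ASO-PURPL with ASO-NC, each with the authors' log2 fold change and a lowest value of 0.01, and the table of replicate 2 holds all 4 groups with a lowest value of 0. That the values are FPKM was read from the file headers and values, and depth is unknown.

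For a repeated name the row of highest mean was kept, and 1 gene with an unreadable cell was left out. A gene was tested if its mean reached 1 FPKM in the 4 libraries of one comparison or the other (14977 of 59370). Log2 ratios of FPKM + 1 within each table, which pairs libraries of one replicate number, were fitted with limma 3.58.1 (R 4.3.3, moderated with a trend) over all 4 pairs, with coefficients for overexpression, knockdown and their difference, and Benjamini-Hochberg adjustment over all genes tested (threshold 0.05). Deviations from group means of same-numbered libraries had correlations of 0.14 (OE-PURPL and PCDNA) and 0.49 (ASO-PURPL and ASO-NC). PCDNA against ASO-NC had no test, and a log2 ratio of at least 1 was counted. From each pathway list the text names genes among the 3 of highest mean FPKM and the 2 with the largest mean log2 ratio in each comparison, and the 5 genes of highest correlation with the members' mean and with NLRC5. PSMB5, IRF1, NFKB1, IFNG, the HLA class II genes at or near 0 and the markers of absent cell types were named outside this rule, after their values were seen, and genes of the MHC region were named by their ratio. The promoter patterns were chosen after the sequences were read. The members and lists were chosen with earlier results of these data known. Alternatives were other pseudocounts (0.1 and 5), filters, centring, quantile normalization, fits without a trend or of one comparison, and leaving out each pair.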

Additional observations from a re-analysis of the deposited data

How the results depend on the processing

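None of the 9 genes passed in any setting run for the overexpression, knockdown or difference tests, where their lowest adjusted p-values were 0.227, 0.474 and 0.302 (limma). Over all genes, 4 passed for overexpression, against 2 with a pseudocount of 5, 0 in a fit of this comparison alone and 0 to 1 when a pair was left out. For knockdown 0 passed (1225 at an unadjusted p under 0.05), against 1 with a pseudocount of 0.1 and 9 without a filter. For the difference 3 passed, against 10 without a filter and 0 without any one pair. Without the replicate block, with quantile normalization, 5, 0 and 4 passed. Past a log2 ratio of 1 for PCDNA over ASO-NC, 1159 genes became 502 with a pseudocount of 5, and HLA-C had 0.91 with quantile normalization.

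Signs of small changes turned. For knockdown, centring gave HLA-E 0.023 and HLA-F 0.030, and quantile normalization with no replicate block, which alters both choices at once, gave 0.029, 0.047 and, for B2M, -0.0031. For the difference, centring gave B2M -0.034 and TAPBP -0.016, and quantile normalization with no replicate block gave TAPBP -0.18. Leaving out a pair gave ranges of -0.22 to 0.029 for TAPBP after overexpression, and after knockdown -0.19 to 0.084 for HLA-B, -0.15 to 0.15 for HLA-C, -0.20 to 0.17 for HLA-E, -0.11 to 0.090 for HLA-F and -0.12 to 0.29 for B2M. For the difference these were -0.19 to 0.22 for B2M and -0.094 to 0.15 for TAPBP. The cause was not tested. With 2 libraries a group and unknown depth, small changes cannot be resolved.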
